A study of Mus musculus with 9 samples.

Results

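Fc gamma receptors bind the constant part of immunoglobulin G and let myeloid cells respond to antibody-coated targets. The members described here are all probe sets of the value table whose platform symbol is exactly Fcgr1, Fcgr2b, Fcgr3 or Fcer1g, which gave 6 of 12488 probe sets and 4 of 8251 genes. Fcgr1 and Fcer1g had 2 probe sets each, and Fcgr2b and Fcgr3 had 1 each. RNA of CD11b+ cells sorted from the spleen of female mice aged 8 to 12 weeks was measured on 9 Affymetrix MG-U74Av2 arrays. They form 3 groups of 3: cells of tumor-bearing mice kept 24 h in complete medium (cultured), cells of tumor-bearing mice at 0 h of culture (fresh), and cells of tumor-free mice, which were not cultured. Arrays are named by group and replicate number, such as cultured 3. The labels do not name the tumor, the strain or any treatment of the mice, and do not say that replicates were separate mice, so the p-values measure the scatter of these samples alone, whose source may be technical.

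Mice carry an inhibitory Fc gamma receptor, encoded by Fcgr2b, with an inhibitory motif in its cytoplasmic tail, and activating receptors, among them those encoded by Fcgr1 and Fcgr3. The activating receptors assemble with the common gamma chain, encoded by Fcer1g, whose tyrosine motifs are phosphorylated by Src family kinases and then bind the kinase Syk. Fcgr1 encodes the high-affinity receptor for immunoglobulin G of monocytes and macrophages and is a known target of interferon gamma. Myeloid cells carry both kinds of receptor, and the balance between them sets how strongly immune complexes activate the cell.

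All 4 genes had an entry in the RefSeq promoter table of GRCm38.p6, which spans 250 bases before to 50 bases after the start of each gene. The promoters of Fcgr1 and Fcgr2b are printed, because the signals of these receptors varied most between arrays. Both strands were searched for the interferon gamma activated site TTCNNNGAA, for the core GAGGAA bound by the myeloid factor PU.1 and for the core of the interferon-stimulated response element. Capitals mark the matches, all on the printed or the opposite strand, and the 2 genes lie on the minus strand of their chromosomes, so that each line reads 5′ to 3′ along the gene.
Fcgr1, chr3:96293920-96294219: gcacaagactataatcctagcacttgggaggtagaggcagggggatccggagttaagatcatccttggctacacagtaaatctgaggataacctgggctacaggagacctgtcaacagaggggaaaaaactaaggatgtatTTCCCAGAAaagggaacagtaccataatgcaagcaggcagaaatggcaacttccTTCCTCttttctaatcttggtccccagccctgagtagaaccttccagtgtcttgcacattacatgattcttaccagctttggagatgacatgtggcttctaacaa
Fcgr2b, chr1:170976022-170976321: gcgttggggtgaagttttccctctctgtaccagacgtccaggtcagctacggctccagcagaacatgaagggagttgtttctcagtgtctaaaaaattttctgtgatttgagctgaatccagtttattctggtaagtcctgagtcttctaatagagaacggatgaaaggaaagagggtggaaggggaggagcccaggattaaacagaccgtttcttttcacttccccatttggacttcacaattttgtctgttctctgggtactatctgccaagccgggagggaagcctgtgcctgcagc

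The Fcgr1 promoter held 1 match to TTCNNNGAA, starting at position -109 from the start site, and 1 to GAGGAA on the opposite strand at position -55. The first pattern was present in 8.47% of 27025 promoters of the same length and the second in 28.3%, and the matches did not overlap. The Fcgr3 promoter held GAGGAA on the opposite strand at position -6, and its window was the first of 2 entries. The Fcgr2b and Fcer1g windows held none of the 3 patterns, and the interferon-stimulated response element core, present in 3.49% of promoters, was in none of the 4 windows. A match is a run of letters and shows no binding. On chromosome 1 of the annotation, Fcgr2b, Fcgr4 and Fcgr3 follow each other among their protein-coding neighbours, with Fcer1g farther along the same chromosome, and Fcgr1 lies on chromosome 3.

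The values are MAS5 signals on a linear scale with no detection calls, and the tests used log2(signal + 7.83). The median signal of an array was 33.4 to 42.8, and 16.6% to 23.6% of its values lay below that offset. Integrin alpha M (Itgam), the antigen of the sort, had signals of 244 to 954 on all arrays, and the neutrophil gene S100a8 had 7642 to 17393. In each group 1 array stood apart from the other 2 (cultured 3, fresh 3 and tumor-free 1), with correlations within groups of 0.824 to 0.957. The mean log2 signal of 9 bacterial spike-in probe sets was 9.86 to 10.50 on cultured 1 and 2, fresh 1 and 2 and tumor-free 1, the high spike-in class, and 8.99 to 9.77 on the others, the low class. The classes were split at the median of the 9 arrays, which counts as high. Fresh 2 at 9.86 and tumor-free 2 at 9.77 lie on the 2 sides of the split, so the classes are not clearly separate sets of arrays. Signals of 11 genes of exocrine pancreas summed to 13312 to 22553 in fresh cells and 612 to 898 in tumor-free cells, with 10 of the 11 tested passing the test as higher. Of 18 monocyte and macrophage markers tested, C1qa, C1qb, Mrc1 and Hmox1 fell in fresh against tumor-free cells. Less RNA of a gene per cell and fewer of the cells that carry it cannot be told apart in these bulk samples.

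With limma, 0 of the 6 probe sets had an adjusted p under 0.05 in any of the 3 comparisons, with adjusted p-values of 0.113 to 0.645 for fresh against tumor-free cells, 0.142 to 0.855 for cultured against fresh cells and 0.295 to 0.977 for cultured against tumor-free cells. Of all 8696 probe sets tested, limma called 1.9%, 2.68% and 1.23% in these comparisons. At an unadjusted p of 0.05, limma passed 4 of the 6 for fresh against tumor-free cells, where 16.7% of all did so, 2 of 6 for cultured against fresh cells (16.3% of all) and 1 of 6 for cultured against tumor-free cells (14.1% of all). The groups did not overlap for 3 of 6 probe sets between fresh and tumor-free cells (22.4% of all), for 1 of 6 between cultured and fresh cells (22.2% of all) and for 0 of 6 between cultured and tumor-free cells (18.5% of all). For fresh against tumor-free cells the 4 were both probe sets of Fcgr1, Fcgr3 and probe set 160692_at of Fcer1g. The 3 without overlap were the same except Fcgr3. Both Fcgr1 probe sets read the same gene, and the other members among the 4 had low signals. Probe set 160692_at was also below the filter on mean signal. These counts are therefore not counts of separate genes and do not speak for the family. The comparisons share arrays, so they are not independent of each other. Since the cells of tumor-free mice were not cultured, tumor and culture cannot be told apart in the last one.

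**Figure D1:**
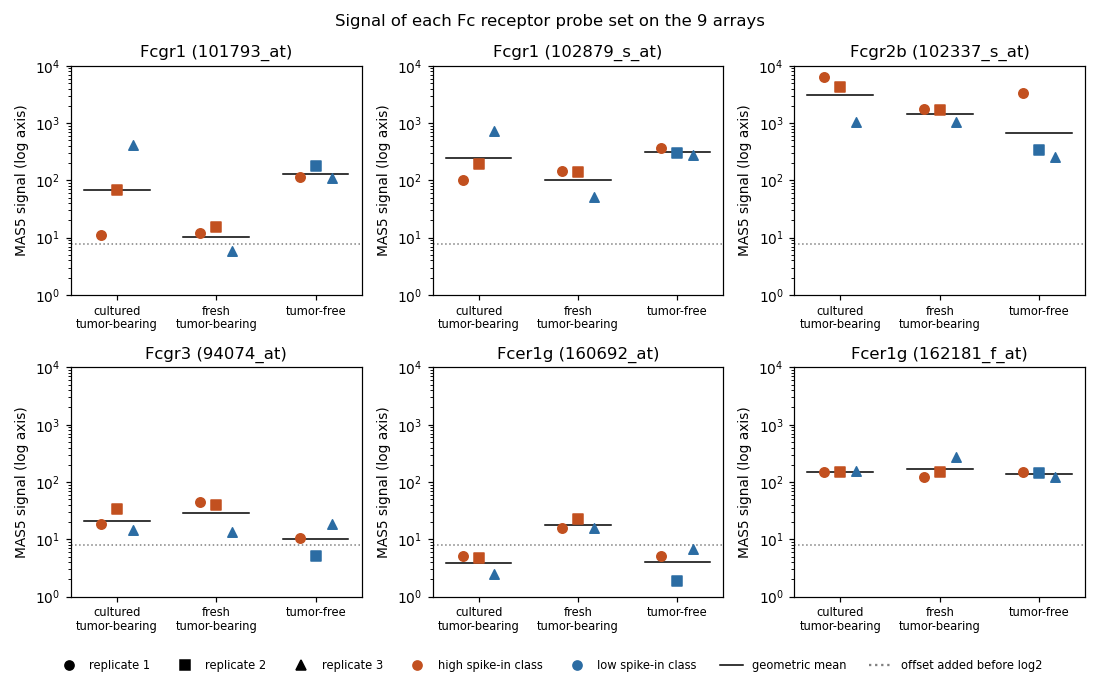
MAS5 signal (log axis) of the 6 probe sets of Fcgr1, Fcgr2b, Fcgr3 and Fcer1g on each of the 9 arrays, by group, with marker shape for the replicate number, colour for the spike-in class, a bar for the group's geometric mean and a dotted line for the offset of 7.83. The lower Fcgr1 signals of fresh cells and the wide spread of Fcgr2b in tumor-free cells are visible, while Fcgr3 and probe set 160692_at of Fcer1g lie mostly within the range of the yeast control probe sets, 0.85 to 38.4.

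Fcgr1, the high-affinity activating receptor, had its lowest signals in fresh cells of tumor-bearing mice. Probe set 101793_at read 12.2, 15.6 and 5.80 on fresh 1, 2 and 3, against 116, 176 and 108 on tumor-free 1, 2 and 3. The fresh values lay within the range of the yeast control probe sets, 0.85 to 38.4, and fresh 3 lay below the offset of 7.83. Every fresh array lay below every tumor-free array, and the difference was -2.90 ± 0.84 on the log2(signal + 7.83) scale (SE, n = 3 each, 95% interval -4.74 to -1.05), with a limma adjusted p of 0.113. Its size depended on the offset, at -3.39 with the offset at the 5th percentile and -2.12 at the 40th. The second probe set, 102879_s_at, read 145, 138 and 51.0 on fresh 1, 2 and 3, against 371, 307 and 282 on tumor-free 1, 2 and 3. It differed the same way without overlap, by -1.57 ± 0.61 (SE, n = 3 each, 95% interval -2.91 to -0.24), with a limma adjusted p of 0.221. The 2 probe sets followed each other over the 9 arrays (r = 0.949, for 1 gene and the same libraries).

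In cultured cells Fcgr1 covered a wide range. Probe set 101793_at read 11.3, 67.4 and 409 on cultured 1, 2 and 3, so that cultured 1 lay among the fresh arrays and cultured 3 above every tumor-free array. The value of cultured 1 also lay within the range of the yeast controls. Probe set 102879_s_at read 100, 193 and 734 on the same arrays, in the same order. Against fresh cells the differences were 2.18 ± 0.84 (95% interval 0.34 to 4.03) and 1.21 ± 0.61 (95% interval -0.13 to 2.54) on the log2 scale, with limma adjusted p-values of 0.213 and 0.362. Against tumor-free cells they were -0.71 ± 0.84 (95% interval -2.56 to 1.13) and -0.37 ± 0.61 (95% interval -1.70 to 0.97), with limma adjusted p-values of 0.755 and 0.844. These values depended on which cultured arrays were included: without cultured 3, probe set 101793_at differed by 1.03 from fresh and by -1.87 from tumor-free cells, and without cultured 1 it differed by 3.25 from fresh (limma adjusted p = 0.0337) and by 0.36 from tumor-free cells.

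The spread within the cultured group also entered the test of fresh against tumor-free cells, because 1 variance was fitted to all 9 arrays. The SD of log2(signal + 7.83) of probe set 101793_at was 2.23 in cultured, 0.40 in fresh and 0.36 in tumor-free cells (n = 3 each). In a fit of only the 6 arrays compared, the difference between fresh and tumor-free cells was -2.90 with an SE of 0.34 and a limma adjusted p of 0.00522, where 1.86% of all probe sets were called. The corresponding fits of 6 arrays called 3.69% for cultured against fresh cells and 0.161% for cultured against tumor-free cells. The call for this probe set therefore differed between the 2 fits, and its groups were the same distance apart in both. Probe set 102879_s_at was not called in that fit (limma adjusted p = 0.0935). Without cultured 3 the 101793_at difference between fresh and tumor-free cells had a limma adjusted p of 0.014, and without cultured 1 of 0.0345.

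Beside the lower Fcgr1 signal, the summed signal of 21 monocyte and macrophage markers was 18432 to 22201 in fresh cells and 22919 to 29104 in tumor-free cells, also without overlap. In cultured cells that sum was 29278, 32890 and 19403 on cultured 1, 2 and 3, lowest on the array where Fcgr1 was highest. Colony stimulating factor 1 receptor (Csf1r), a defining gene of the lineage, read 2514, 3128 and 999 on cultured 1, 2 and 3, against 1163, 1240 and 873 on fresh 1, 2 and 3 and 1059, 2248 and 2422 on tumor-free 1, 2 and 3. Csf1r was lowest on tumor-free 1 among the tumor-free arrays. Other markers of the list went the other way in cultured cells and were highest on cultured 3. Adgre1 read 85.6, 125 and 282 and Cd68 read 613, 570 and 900 on cultured 1, 2 and 3. The order of the sum in cultured cells therefore does not stand for every marker of the list. The part of cell composition in the Fcgr1 difference was not tested.

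Genes induced by interferon gamma, a cytokine known to raise Fcgr1, were read from a list of 23 symbols, of which 18 were on the array and 17 tested. For fresh against tumor-free cells limma called 0 of the 17, 7 had an unadjusted p under 0.05, and 16 of 17 were lower, with a median log2 difference of -1.10 against 0.01 over all probe sets. Members with the largest differences were interferon-inducible GTPases. Ifi47 averaged 16.1 ± 8.28 in fresh and 180.2 ± 26.1 in tumor-free cells (SD, n = 3 each, limma adjusted p = 0.0661). Irgm1 averaged 17.5 ± 13.4 in fresh and 108.0 ± 6.69 in tumor-free cells (limma adjusted p = 0.086), and Igtp 23.3 ± 2.72 in fresh and 115.5 ± 12.1 in tumor-free cells (limma adjusted p = 0.116). The groups did not overlap for any of these 3.

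For cultured against fresh cells 6 of the 17 rose and 0 fell, with a median log2 difference of 1.78 against 0.02 over all probe sets, where 1.51% of all probe sets rose. The transcription factor gene Irf1 rose by 2.43 ± 0.26 (SE, n = 3 each, limma adjusted p = 0.000853), with 748, 844 and 1315 on cultured 1, 2 and 3, against 158, 152 and 197 on fresh 1, 2 and 3. The peptide transporter gene Tap1 rose by 2.23 ± 0.31 (limma adjusted p = 0.00454), and Irf8, Igtp, Ifi47 and Irgm1 rose by 1.87 to 3.76. The guanylate-binding protein gene Gbp2 read 104, 254 and 1934 on cultured 1, 2 and 3, against 9.73, 8.78 and 66.3 on fresh 1, 2 and 3, with a limma adjusted p of 0.0514. Against tumor-free cells only Tap1 and Irf1 of the 17 rose in cultured cells, by 1.66 (limma adjusted p = 0.0298) and 1.33 (limma adjusted p = 0.0361), and the median of the list was 0.35 against 0.05 over all. For cultured against fresh cells Irf1, Tap1 and Irf8 were not among the 4 largest differences of the list and were named after their values were seen. Tap1 and Irf1 were among the 4 largest for cultured against tumor-free cells.

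The summed signal of the list was 3501, 5677 and 12819 on cultured 1, 2 and 3, then 1633, 1519 and 1758 on fresh 1, 2 and 3, and 2665, 4591 and 3984 on tumor-free 1, 2 and 3. All fresh arrays were lowest for the list, and cultured 3 was highest, as it was for Fcgr1. Cultured 1 lay between tumor-free 1 and tumor-free 3 for the list, but among the fresh arrays for Fcgr1. Fcgr1 is not itself in the sum. The part of interferon gamma, or of any other interferon, in the Fcgr1 values was not tested.

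**Figure D2:**
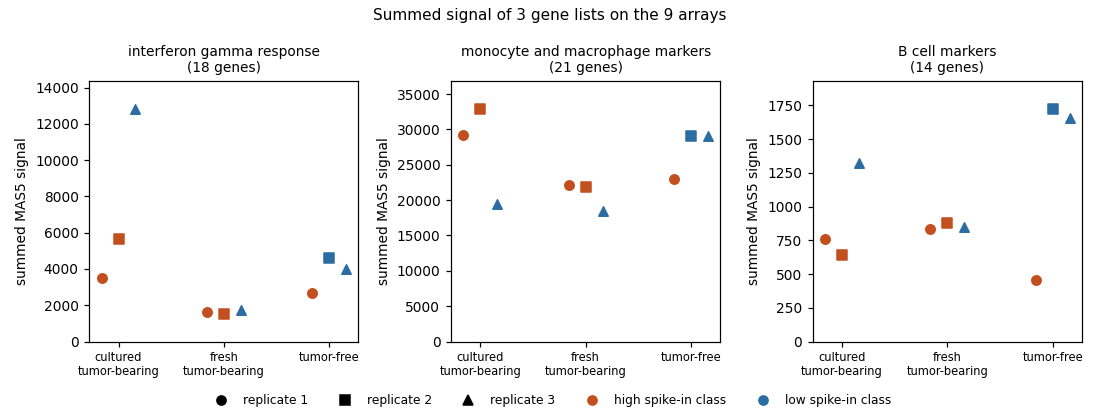
Summed MAS5 signal of 3 gene lists on each array: interferon gamma response (18 genes), monocyte and macrophage markers (21 genes) and B cell markers (14 genes), by group, with marker shape for the replicate number and colour for the spike-in class. The interferon list was lowest on the fresh arrays, at 1519 to 1758, and highest on cultured 3, at 12819, while the B cell list was lowest on tumor-free 1, at 460.

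Genes whose signals followed Fcgr1 most closely over the 9 arrays included interferon-induced genes. The 5 with the highest correlation to probe set 101793_at were Wdr61 (r = 0.962), Ssbp1 (0.951), Ifit3 (0.946), Mff (0.944) and Ifit2 (0.939), and those of 102879_s_at were Wdr61 (0.944), Ms4a4c (0.938), Ifitm3 (0.918), Trim30a (0.911) and Ifit2 (0.911). Over 0.9 lay 0.234% and 0.117% of 7700 probe sets. The points share arrays and scaling, and cultured 3 was highest for both Fcgr1 probe sets as well as for Ifit2 and Ifit3. Ifit2 read 6.54, 22.7 and 639 on cultured 1, 2 and 3, 1.26, 1.31 and 1.82 on fresh 1, 2 and 3 and 76.0, 44.4 and 50.5 on tumor-free 1, 2 and 3. Cultured 3 was highest for Ifit2 as for Fcgr1, and all fresh arrays were lowest for Ifit2, whereas for Fcgr1 cultured 1 lay below fresh 1 and fresh 2.

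Fcgr2b, the inhibitory receptor, had signals that ranged widely within the cultured and the tumor-free group. Probe set 102337_s_at read 6434, 4313 and 1041 on cultured 1, 2 and 3. It read 1794, 1671 and 1056 on fresh 1, 2 and 3, and 3345, 337 and 260 on tumor-free 1, 2 and 3. Tumor-free 1 lay above every fresh array and tumor-free 2 and 3 below, and cultured 3 lay just below the lowest fresh array. The means were 3929 ± 2717 in cultured, 1507 ± 396 in fresh and 1314 ± 1759 in tumor-free cells (SD, n = 3 each).

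No comparison of Fcgr2b passed the test. Fresh cells differed from tumor-free cells by 1.13 ± 0.89 on the log2 scale (SE, 95% interval -0.84 to 3.09, limma adjusted p = 0.537), and cultured from fresh cells by 1.06 ± 0.89 (95% interval -0.91 to 3.03, limma adjusted p = 0.631). Cultured cells differed from tumor-free cells by 2.19 ± 0.89 (95% interval 0.22 to 4.15, limma adjusted p = 0.295). Tumor-free 1 decided the last value: without it the difference was 3.34 with a limma adjusted p of 0.0103, and the difference of fresh from tumor-free cells was 2.28 with an adjusted p of 0.0528. Without all 3 arrays that stood apart, Fcgr2b was called in all 3 comparisons, with 2.52 for fresh against tumor-free cells (limma adjusted p = 0.000258), 1.60 for cultured against fresh cells (limma adjusted p = 0.00291) and 4.12 for cultured against tumor-free cells (limma adjusted p = 2.59e-05). The 3 arrays were chosen after seeing the data, limma then called 24.6%, 15.7% and 20.8% of all probe sets, and every remaining tumor-free array is of the low and every remaining tumor-bearing array of the high spike-in class, so that class and tumor cannot be told apart there. With array weights, which called 36.5%, 21.9% and 16% of all, Fcgr2b was called for fresh against tumor-free cells (2.25) and for cultured against tumor-free cells (3.48). With the spike-in class as a term of the model, the Fcgr2b difference was 0.40 ± 0.49 for fresh against tumor-free cells (SE, limma adjusted p = 0.697) and 1.46 ± 0.49 for cultured against tumor-free cells (limma adjusted p = 0.178). Fresh differed from tumor-free cells by -0.95 within the high class, on tumor-free 1 and fresh 1 and 2, and by 1.81 within the low class, on tumor-free 2 and 3 and fresh 3.

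The order of the arrays by Fcgr2b matched measures of the arrays themselves in part. The 5 arrays with the highest Fcgr2b signal (cultured 1, cultured 2, tumor-free 1, fresh 1 and fresh 2) were those with the highest spike-in signals, in the same order. The remaining arrays did not keep that order. Fresh 3 and cultured 3 had the lowest spike-in means, 8.99 and 9.25, with Fcgr2b at 1056 and 1041. Tumor-free 2 and 3 had spike-in means of 9.77 and 9.65, with Fcgr2b at 337 and 260. The ratio of the 3′ to the 5′ probe sets of beta-actin, which is sensitive to RNA integrity and labelling, was 2.27, 2.36 and 1.16 on cultured 1, 2 and 3, 1.59, 1.58 and 1.35 on fresh 1, 2 and 3, and 2.57, 0.994 and 1.19 on tumor-free 1, 2 and 3. The 3 arrays with the highest beta-actin ratio were the 3 with the highest Fcgr2b signal, in another order. Fresh 1, 2 and 3 had ranks 4, 5 and 6 by both measures, and the remaining arrays did not keep the order. The same ratio for Gapdh did not follow the order by Fcgr2b. It was 0.98, 1.26 and 0.84 on cultured 1, 2 and 3, 1.07, 0.99 and 1.69 on fresh 1, 2 and 3, and 1.63, 0.92 and 1.11 on tumor-free 1, 2 and 3. The part of these array measures in the Fcgr2b values was not tested.

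**Figure D3:**
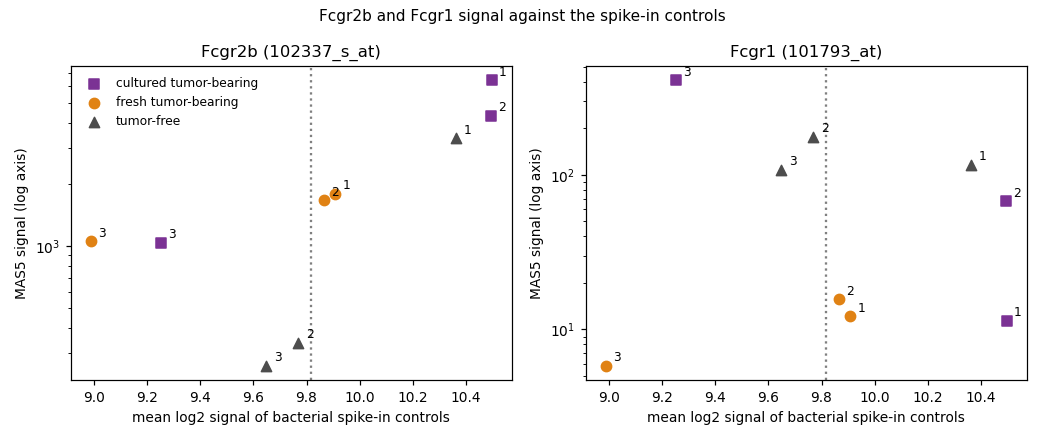
Signal of Fcgr2b and of Fcgr1 probe set 101793_at (log axes) against the mean log2 signal of the 9 spike-in probe sets, 1 point per array, with colour and shape for the group, a number for the replicate and a dotted line between the 2 spike-in classes. Fcgr2b was highest on the 3 arrays with the highest spike-in signal, cultured 1, cultured 2 and tumor-free 1, but did not rise with that signal within the low class. Fcgr1 was not ordered by it.

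B cells also carry Fcgr2b, so their markers are given beside it. The summed signal of 14 B cell genes was 763, 645 and 1324 on cultured 1, 2 and 3, 836, 877 and 848 on fresh 1, 2 and 3, and 460, 1723 and 1656 on tumor-free 1, 2 and 3. It was lowest on tumor-free 1, where Fcgr2b was 3345, and highest on tumor-free 2 and 3, where Fcgr2b was 337 and 260. The B cell receptor chain gene Cd79a read 48.0 on tumor-free 1, against 210 on tumor-free 2 and 186 on tumor-free 3. Tumor-free 1 is also the tumor-free array that stood apart, and the part of B cells in the Fcgr2b signal was not tested. The probe sets most like Fcgr2b over the 9 arrays were those of Prelid1 (r = 0.972), Slc39a1 (0.971), Cdkn1a (0.971), Actb (0.968) and Plekha1 (0.966), and 0.688% of 7700 probe sets had r over 0.9, the largest share among the 6 member probe sets. Suffix _s_at marks a probe set that can match more than 1 transcript, and Fcgr2b and Fcgr3 are close in sequence, so signal shared with a relative was not tested.

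Fcgr3, the low-affinity activating receptor of neutrophils, macrophages and natural killer cells, had low signals on its only probe set. Probe set 94074_at read 18.3, 33.4 and 14.4 on cultured 1, 2 and 3, 45.2, 39.6 and 13.3 on fresh 1, 2 and 3, and 10.7, 5.15 and 18.4 on tumor-free 1, 2 and 3. Of these, only fresh 1 and fresh 2 lay above the highest of 36 values of 4 yeast control probe sets on these arrays, which ran from 0.85 to 38.4 with a median of 10.6. Such signals say little of the level of a receptor that CD11b+ cells are known to carry. Fresh cells differed from tumor-free cells by 1.02 ± 0.45 on the log2 scale (SE, n = 3 each, 95% interval 0.03 to 2.02, limma adjusted p = 0.284), with fresh 3 among the tumor-free arrays. Cultured cells differed from fresh cells by -0.38 ± 0.45 (95% interval -1.38 to 0.61, limma adjusted p = 0.753) and from tumor-free cells by 0.64 ± 0.45 (95% interval -0.35 to 1.63, limma adjusted p = 0.567). The closest genes by correlation were Utp18 (r = 0.958), Ssx2ip (0.938), Lat (0.928), Lrp2 (0.928) and Usf1 (0.920). Of cell types that carry the receptor, 11 natural killer cell genes summed to 359 to 706 in cultured, 205 to 416 in fresh and 249 to 473 in tumor-free cells, and 12 neutrophil genes to 16740 to 49659 in cultured, 55461 to 69503 in fresh and 37159 to 50737 in tumor-free cells. Of these 12, 9 were higher in fresh than in tumor-free cells, with 0 called as higher. The 2 called were lower (0.954% of all were): Cxcr2, at 62.9 against 228.6 (limma adjusted p = 0.0386), and Csf3r, at 510 against 1304 (limma adjusted p = 0.0413).

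The 2 probe sets of Fcer1g, the common chain, did not follow each other (r = 0.217 over the 9 arrays). Probe set 162181_f_at read 150, 149 and 157 on cultured 1, 2 and 3, 122, 147 and 273 on fresh 1, 2 and 3, and 150, 144 and 124 on tumor-free 1, 2 and 3. Apart from fresh 3 it stayed between 122 and 157. Its differences were 0.28 ± 0.29 for fresh against tumor-free cells (95% interval -0.36 to 0.93, limma adjusted p = 0.645), -0.16 ± 0.29 for cultured against fresh cells (95% interval -0.80 to 0.49, limma adjusted p = 0.855) and 0.12 ± 0.29 for cultured against tumor-free cells (95% interval -0.52 to 0.77, limma adjusted p = 0.897; SE, n = 3 each). These intervals leave room for a change of up to 0.93 on the log2 scale. Suffix _f_at marks probes shared with a family of sequences. Cdt1 (r = 0.941) was the single probe set with r over 0.9 to it.

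Probe set 160692_at of Fcer1g was dim throughout. It read 5.11, 4.76 and 2.46 on cultured 1, 2 and 3, 15.9, 22.6 and 15.6 on fresh 1, 2 and 3, and 5.09, 1.84 and 6.85 on tumor-free 1, 2 and 3. All values of cultured and tumor-free cells lay below the offset of 7.83, and all 9 lay within the range of the yeast controls. It was below the filter on mean signal and was tested because the members were kept in. Fresh cells lay above tumor-free cells without overlap, by 1.07 ± 0.36 (SE, n = 3 each, 95% interval 0.27 to 1.87, limma adjusted p = 0.169), and cultured below fresh cells without overlap, by -1.11 ± 0.36 (95% interval -1.91 to -0.32, limma adjusted p = 0.142). The difference of cultured from tumor-free cells was -0.04 ± 0.36 (95% interval -0.84 to 0.75, limma adjusted p = 0.977).

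Its closest genes over the 9 arrays were Reg3b (r = 0.976), Selenok (0.965), Rhd (0.962), Pnliprp1 (0.956) and Bgn (0.952). Reg3b and the lipase-related Pnliprp1 are genes of exocrine pancreas, which summed to 576 to 1185 in cultured, 13312 to 22553 in fresh and 612 to 898 in tumor-free cells. The dim Fcer1g probe set was thus high on the arrays where pancreas genes were high, and probe set 162181_f_at was so only on fresh 3. Their part in its signal was not tested. Mast cells and basophils carry Fcer1g with the immunoglobulin E receptor, and the alpha chain gene of that receptor, Fcer1a, read 1.62 to 15.4 on all arrays, within the range of the yeast controls. Some other genes of these cells had higher signals, and they did not all differ in the same direction. Mcpt8, a basophil protease gene, averaged 123 ± 139 in cultured, 77.1 ± 72.1 in fresh and 3.65 ± 1.91 in tumor-free cells (SD, n = 3 each), with no overlap between fresh and tumor-free cells (limma adjusted p = 0.143). Cpa3, the mast cell carboxypeptidase gene, averaged 33.7 ± 6.52 in fresh and 15.1 ± 7.76 in tumor-free cells, also without overlap (limma adjusted p = 0.248). Kit, from the same gene list, went the other way, at 50.7 ± 3.81 in fresh and 127.7 ± 46.5 in tumor-free cells, without overlap (limma adjusted p = 0.104). Of the 7 genes tested, only Kit was called in any comparison, as lower in cultured than in tumor-free cells (-1.61, limma adjusted p = 0.0408). The 10 genes of the list summed to 494 to 1361 in cultured, 2025 to 3182 in fresh and 827 to 2505 in tumor-free cells, so the sum was lower in cultured than in fresh cells without overlap, as probe set 160692_at was. Most of that difference lay in Hdc, the histidine decarboxylase gene, which averaged 380 ± 318 in cultured and 2002 ± 614 in fresh cells. Of the 7 genes tested, 4 were higher and 3 lower in cultured than in fresh cells, so the sum does not stand for the list. The part of these cells in the signal of probe set 160692_at was not tested either.

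**Figure D4:**
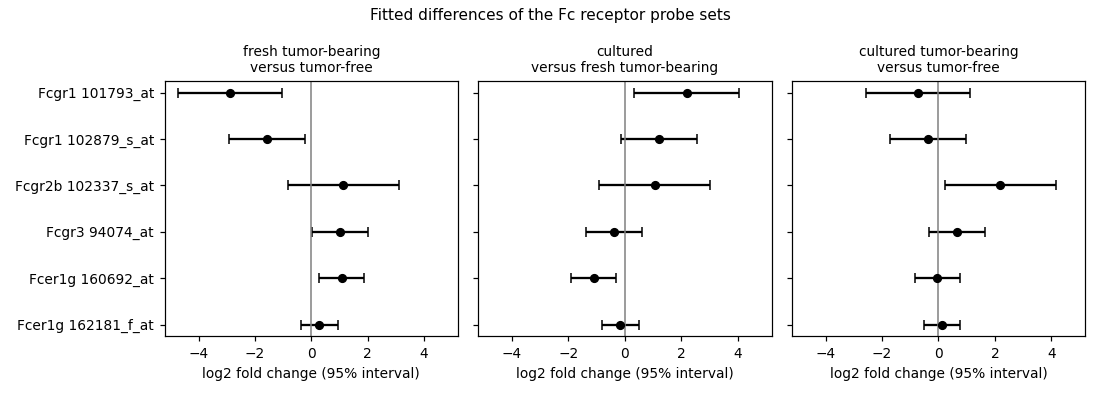
Fitted difference on the log2(signal + 7.83) scale for each of the 6 probe sets in the 3 comparisons, with 95% intervals from the fit of all 9 arrays (n = 3 per group), not adjusted for the number of probe sets. Most intervals cross 0. For fresh against tumor-free cells those of Fcgr1, at -2.90 and -1.57, lie below it. In the same comparison those of Fcgr3 and Fcer1g 160692_at, at 1.02 and 1.07, lie above it. For cultured against fresh cells those of Fcgr1 101793_at (2.18) and Fcer1g 160692_at (-1.11) also exclude 0. So does that of Fcgr2b (2.19) for cultured against tumor-free cells.

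The balance between activating and inhibitory receptors was described as the log2(signal + 7.83) of an activating gene minus that of Fcgr2b on the same array, which compares arrays and not the heights of 2 genes. For Fcgr1 (probe set 102879_s_at, the one with the higher mean) it was -5.90, -4.43 and -0.50 on cultured 1, 2 and 3, -3.56, -3.52 and -4.18 on fresh 1, 2 and 3, and -3.15, -0.13 and 0.11 on tumor-free 1, 2 and 3. All fresh arrays lay below all tumor-free arrays, with means of -3.75 ± 0.37 in fresh and -1.06 ± 1.81 in tumor-free cells (SD, n = 3 each) and a difference of -2.70. A two-sided exact permutation test gave p = 0.1, the smallest that 3 against 3 arrays allow, so that the design could not reach 0.05. Over the 9 tests of 3 activating genes and 3 comparisons its adjusted value was 0.45. Tumor-free 1 lay close to the fresh arrays, and without it the difference was -3.74.

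The other balances described had overlapping groups. Fcgr1 minus Fcgr2b differed by 0.15 between cultured and fresh cells (exact permutation p = 1) and by -2.55 between cultured and tumor-free cells (exact permutation p = 0.2). Fcgr3 minus Fcgr2b was among the 9 tests but is not described, because most Fcgr3 signals lay within the range of the yeast controls. Fcer1g minus Fcgr2b, on probe set 162181_f_at, differed by -0.84, -1.22 and -2.06 for fresh against tumor-free, cultured against fresh and cultured against tumor-free cells, with exact permutation p-values of 0.6, 0.3 and 0.2. All of these differences share the Fcgr2b values.

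Other genes of the pathway were read from lists of known members. Over all probe sets limma called 0.943% as higher and 0.954% as lower for fresh against tumor-free cells, 1.51% as higher and 1.17% as lower for cultured against fresh cells, and 0.586% as higher and 0.644% as lower for cultured against tumor-free cells. The other Fc receptors on the array were few. Of 7 such genes 5 were tested, and limma called 0 of them in each comparison, with 1, 0 and 1 at an unadjusted p under 0.05. The low-affinity immunoglobulin E receptor Fcer2a, a B cell gene, read 14.7 ± 11.7 in fresh and 45.1 ± 13.4 in tumor-free cells, without overlap (limma adjusted p = 0.165; SD, n = 3 each). The neonatal Fc receptor Fcgrt had mean signals of 19.4 in cultured, 24.7 in fresh and 14.9 in tumor-free cells. Fcgr4, a further activating receptor of mice, was not analysed here.

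Chains with tyrosine activation motifs and their partner receptors had 4 tested genes. The lectin receptor Clec4e, which signals through the Fcer1g chain, rose in fresh against tumor-free cells by 1.41 ± 0.31 (SE, n = 3 each, limma adjusted p = 0.0483), with means of 371.6 ± 63.2 in fresh and 140.5 ± 55.2 in tumor-free cells (SD). It was the 1 gene of the 4 that passed, and limma called 0 in the other comparisons, with 0 at an unadjusted p under 0.05 for cultured against fresh cells and 2 for cultured against tumor-free cells. Tyrobp, the chain that pairs with other myeloid receptors, averaged 2736 ± 200 in cultured, 2690 ± 334 in fresh and 3339 ± 909 in tumor-free cells (SD, n = 3 each), and was not called (limma adjusted p of 0.64 to 0.979).

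Kinases and adaptors of the activating pathway had 24 tested genes. The adaptor gene Lat2 rose in cultured against fresh cells by 1.13 ± 0.24 (SE, limma adjusted p = 0.0319), with means of 300.3 ± 48.2 in cultured and 133.2 ± 21.2 in fresh cells (SD, n = 3 each), and was the 1 gene called in that comparison. Syk averaged 577 ± 105 in cultured and 1243 ± 382 in fresh cells without overlap (limma adjusted p = 0.0707). In the other comparisons limma called 0 of the 24, with 4 at an unadjusted p under 0.05 for fresh against tumor-free cells and 6 for cultured against tumor-free cells.

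Among 17 tested genes of inhibitory signalling, Ptpn22, a phosphatase that acts on Src family and Syk family kinases, fell in cultured against fresh cells by 2.12 on the log2 scale (SE 0.26, limma adjusted p = 0.00197), with means of 96.4 ± 11.4 in cultured and 457 ± 133 in fresh cells (SD, n = 3 each). It also fell by 1.72 in cultured against tumor-free cells, the tumor-free mean being 334 ± 22.4 (limma adjusted p = 0.0115). Sirpa, the inhibitory receptor for CD47, rose in cultured against fresh cells by 1.28 ± 0.25 (limma adjusted p = 0.0219), with means of 1139 ± 235 in cultured and 461 ± 70.2 in fresh cells. Inpp5d, the lipid phosphatase recruited by the Fcgr2b tail, averaged 106 ± 49.3 in cultured, 125 ± 39.3 in fresh and 232 ± 55.6 in tumor-free cells and was not called (limma adjusted p of 0.192 to 0.772). For fresh against tumor-free cells limma called 0 of the 17, with 4 at an unadjusted p under 0.05. The median difference of the list was -0.44, and the genes furthest down were the B cell genes Cd72 and Cd22. Cd72 averaged 7.16 ± 4.68 in fresh and 72.2 ± 49.5 in tumor-free cells (limma adjusted p = 0.137), and Cd22 averaged 11.9 ± 4.90 in fresh and 70.8 ± 46.6 in tumor-free cells (limma adjusted p = 0.144). On tumor-free 1, 2 and 3 Cd72 read 16.2, 89.7 and 111, and Cd22 read 17.2, 102 and 93.0. Tumor-free 1 was thus closer to the fresh arrays, and the groups overlapped for Cd22.

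The machinery of phagocytosis had 30 tested genes, with 0 called by limma for fresh against tumor-free cells and 4 at an unadjusted p under 0.05. The membrane linker gene Ezr fell in cultured against fresh cells, to 286 ± 77.4 in cultured against 740 ± 73.4 in fresh cells (SD, n = 3 each, limma adjusted p = 0.0166), and the actin-capping gene Capg rose in cultured against tumor-free cells, at 1250 ± 281 in cultured against 364 ± 195 in tumor-free cells (limma adjusted p = 0.0299). Of 8 other opsonin receptors tested, Cd93 fell in cultured against fresh cells, to 60.6 ± 9.10 in cultured against 284 ± 128 in fresh cells (limma adjusted p = 0.0375), and limma called 0 in the other comparisons, with 0 at an unadjusted p under 0.05 for fresh against tumor-free cells and 3 for cultured against tumor-free cells. Of 6 tested immunoglobulin genes, among them the heavy chain genes Ighm, Igha and Ighd, limma called 0 in every comparison, also with 0 at an unadjusted p under 0.05.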

How the data were processed

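CD11b+ cells of mouse spleen were profiled on 9 arrays. The authors deposited 1 linear array intensity for every probe set on each array. It is a MAS5 signal, per the submitters' processing notes, with version and settings not given in the sources used here. Each array had a 2% trimmed mean of 100.06 to 100.08, so no further scaling was applied. The number of arrays limits the precision, and fold changes of probe sets near the offset are understated.

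Signals were taken as log2(signal + 7.83), the 20th percentile of all values. The 66 control probe sets and the lowest 30% by mean were left out, except 1 member probe set, which left 8696. A linear model of the 3 groups used all arrays together (limma 3.58.1 in R 4.3.3, intensity trend, 6 residual degrees of freedom), two-sided, with Benjamini-Hochberg adjustment over the 8696 and a threshold of 0.05. Balances were compared by exact permutation. Alternatives covered normalization, offset, filter, variance prior, arrays in the fit, array weights, replicate block and spike-in class.

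The platform annotation gave 1 symbol to 10833 probe sets, several to 396 and did not list 1237. RefSeq names matched 10817 of them. A listed gene stands by its brightest probe set on average. Named were all member probe sets, up to 4 genes per list with the largest difference, and the 5 genes most like each probe set. Called genes outside this rule were named after their values were seen. The members, lists and rules were chosen with earlier results of these data known.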

Additional observations from a re-analysis of the deposited data

How the results depend on the processing

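Quantile normalization, median centring, other offsets, a stricter filter and a variance prior without trend changed no member's call, and of the balances only Fcgr3 minus Fcgr2b for fresh against tumor-free cells changed sign (0.19 with the offset at the 5th percentile). With no filter, Fcer1g 160692_at in cultured against fresh cells was called (-1.11). The numbers of probe sets called for fresh against tumor-free, cultured against fresh and cultured against tumor-free cells were 165, 233 and 107, and became 3175, 1904 and 1389 with array weights and 277, 559 and 177 when the spike-in class was a block. With that block no member was called, Fcgr2b moved to 0.40 for fresh against tumor-free and 1.46 for cultured against tumor-free cells, and Fcgr1 101793_at was -2.56, 2.18 and -0.38 in the 3 comparisons. In fits of only the 6 arrays compared, cultured against tumor-free cells gave 14 calls, and Fcgr1 101793_at was called for fresh against tumor-free cells (-2.90). Array weights, which give less weight to arrays far from their group, called for fresh against tumor-free cells Fcgr1 101793_at (-2.82) and 102879_s_at (-1.08), Fcgr2b (2.25), Fcgr3 (1.41) and Fcer1g 160692_at (1.02), for cultured against fresh cells Fcgr1 101793_at (1.61) and Fcer1g 160692_at (-0.99), and for cultured against tumor-free cells Fcgr2b (3.48). Fcer1g 162181_f_at changed sign with them (-0.038 for fresh against tumor-free, 0.19 for cultured against fresh cells), as did 160692_at for cultured against tumor-free cells (0.028).

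Without the 3 arrays that stood apart, chosen after seeing the data, 2138, 1368 and 1811 probe sets were called. Fcgr1 101793_at (-2.75) and 102879_s_at (-1.02), Fcgr2b (2.52) and Fcgr3 (1.44) were called for fresh against tumor-free cells, Fcgr2b (1.60) for cultured against fresh cells, and Fcgr1 101793_at (-1.94) and 102879_s_at (-1.04) and Fcgr2b (4.12) for cultured against tumor-free cells. Signs changed for Fcgr1 102879_s_at (-0.020) and Fcer1g 162181_f_at (0.15) in cultured against fresh and Fcer1g 160692_at (0.10) in cultured against tumor-free cells. Balances moved to -1.62 (Fcgr1 minus Fcgr2b, cultured against fresh), -5.15 (the same, cultured against tumor-free), -3.29 (Fcgr3 minus Fcgr2b, cultured against tumor-free), -2.51 (Fcer1g minus Fcgr2b, fresh against tumor-free) and -3.96 (the same, cultured against tumor-free). Spike-in class and tumor cannot be told apart in that subset.

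Within the high and the low spike-in class, with 1 or 2 arrays per group and no test, values differed widely, also chosen after seeing the data. For fresh against tumor-free cells they were -3.42 (Fcgr1 101793_at), -2.36 (102879_s_at), 1.81 (Fcgr2b), 0.19 (Fcgr3) and 0.99 (Fcer1g 162181_f_at) in the low class, and -0.95 (Fcgr2b) and -0.15 (162181_f_at) in the high class. For cultured against fresh cells they were 4.93, 3.66, -0.021 (Fcgr2b), 0.074 (Fcgr3) and -0.77 (162181_f_at) in the low class, the first 2 for Fcgr1 101793_at and 102879_s_at, and -0.020 (102879_s_at) and 0.15 (162181_f_at) in the high class. For cultured against tumor-free cells they were 1.51 and 1.30 for the Fcgr1 probe sets in the low class, and -0.0045 for 162181_f_at in the high class. The balances for fresh against tumor-free cells were -0.40, 2.39 and 0.80 in the high class for Fcgr1, Fcgr3 and Fcer1g, and -4.17 and -1.62 in the low class for Fcgr1 and Fcgr3. For cultured against fresh cells they were -1.62 in the high class and 3.68 in the low class for Fcgr1, and 0.095 in the low class for Fcgr3, and for cultured against tumor-free cells 0.17 in the high class for Fcgr3. The cause of these shifts was not tested.

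Leaving out 1 array at a time gave 62 to 624, 74 to 489 and 21 to 529 calls in the 3 comparisons. Fcgr1 101793_at ranged over -3.07 to -2.68 (fresh against tumor-free), 1.03 to 3.25 (cultured against fresh) and -1.87 to 0.36 (cultured against tumor-free), and 102879_s_at over -1.81 to -1.12, 0.43 to 1.82 and -1.14 to 0.25. Fcgr2b ranged over 0.46 to 2.28, 0.53 to 1.84 and 1.52 to 3.34, and Fcgr3 over 0.77 to 1.44, -0.80 to -0.13 and 0.38 to 0.89. Fcer1g 162181_f_at ranged over -0.044 to 0.51, -0.38 to 0.17 and 0.05 to 0.18, and 160692_at over 0.90 to 1.20, -1.18 to -0.99 and -0.21 to 0.088. The balances ranged over -3.74 to -2.11, -1.41 to 1.29 and -4.11 to -1.41 for Fcgr1, -1.26 to 0.82, -2.03 to -0.84 and -2.70 to -0.62 for Fcgr3, and -1.94 to -0.25, -2.02 to -0.65 and -3.16 to -1.47 for Fcer1g. Most calls left out tumor-free 1 in fresh against tumor-free (624), cultured against fresh (489) and cultured against tumor-free cells (529).

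Whether the replicate numbers pair the samples is not known. Deviations of same-numbered arrays from their group means correlated at -0.20 to 0.26, and the values for cultured and fresh arrays were all positive (0.029 to 0.26). Arrays of different numbers were not compared, so these correlations cannot decide it. With the replicate block, 200, 264 and 144 probe sets were called and no member's call changed; Fcgr1 101793_at had limma adjusted p-values of 0.0927, 0.182 and 0.734.

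With 3 arrays per group and no detection calls, dim probe sets such as those of Fcgr3, mostly within the range of the yeast controls, and 160692_at of Fcer1g, wholly within it, cannot show a change reliably.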

Other observations

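Hdc, the histidine decarboxylase gene of basophils and mast cells, averaged 380 ± 318 in cultured and 2002 ± 614 in fresh cells without overlap (SD, n = 3 each, limma adjusted p = 0.0673), and 1020 ± 1026 in tumor-free cells. Hmox1, the heme oxygenase gene of macrophages, fell by 1.78 on the log2 scale in fresh against tumor-free cells (862 ± 77.8 in fresh and 3182 ± 1306 in tumor-free cells, limma adjusted p = 0.0257) and rose by 1.71 in cultured against fresh cells (2847 ± 370 in cultured cells, limma adjusted p = 0.0232). Mrc1, the mannose receptor gene, averaged 20.2 ± 3.08 in cultured, 134 ± 53.0 in fresh and 516 ± 300 in tumor-free cells, and fell in each of the 3 comparisons (limma adjusted p of 0.00142 to 0.0434).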
